A study of Mus musculus with 20 samples.

Results

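The 9 interferon-stimulated genes described here were *Stat2*, *Irf9*, *Irf7*, *Ifit1*, *Ifit2*, *Ifit3*, *Rsad2*, *Isg15* and *Usp18*. They were chosen by name, as interferon-induced genes and the transcription factors that act on them. All 9 stood among the 23420 genes of the count table, and all 9 were among the 13590 genes tested, which reached 1 CPM in at least 10 mice (CPM, the read pairs of a gene scaled to the size of the library). The data were RNA-seq libraries of whole hearts from 20 male C57BL/6 wild type mice aged 9 weeks, of which 10 had received a control diet and 10 an iron-deficient diet. Both diets began at 3 weeks of age and lasted 6 weeks, and neither group carried a transgene or received another treatment. The mice on the deficient diet are called IDA mice, for iron-deficiency anemia. The labels give the iron content of that diet as below 2 ppm in one field and above 2 ppm in another. The study excluded 1 contaminated sample per group, which the sources used here do not name, so all 20 mice were kept and the fold changes of the members were recomputed with each control and IDA mouse left out.

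Type I interferons bind a cell surface receptor made of IFNAR1 and IFNAR2, whose kinases JAK1 and TYK2 phosphorylate STAT proteins, STAT2 among them. STAT2 and IRF9 are parts of the complex ISGF3, which binds the interferon-stimulated response element in the promoters of antiviral genes. IRF7 then raises the production of interferon, and USP18 limits the response at the receptor, so the pathway holds both its own amplifier and its own brake. In the heart these genes are known for their induction in viral myocarditis, and cells keep a low level of them without infection.

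The promoters of the members were read for the letters GAAANNGAAA, the core of the interferon-stimulated response element, on both strands and with overlapping matches counted. RefSeq promoters of mouse build GRCm38.p6, from 250 bases before to 50 bases after the start of transcription, were given for 8 of the 9 members, with *Usp18* missing. The motif was present in 5 of these 8, against 3.99% of all 27025 genes with promoters of the same length. It was found in *Stat2*, *Ifit1*, *Ifit3*, *Rsad2* and *Isg15*, and these letters were not in the windows of *Irf9*, *Irf7* and *Ifit2*. Whether a match goes with a change by diet was not tested. The matched stretches are shown with 20 bases on each side. Each runs 5′ to 3′ on the strand of the gene, with matches in capitals.
*Stat2*, chr10:128270256-128270305, plus strand: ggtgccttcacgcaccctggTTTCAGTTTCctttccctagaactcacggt
*Ifit1*, chr19:34640765-34640833, plus strand: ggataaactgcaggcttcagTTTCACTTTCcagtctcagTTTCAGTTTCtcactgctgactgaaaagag
*Ifit3*, chr19:34583353-34583436, plus strand: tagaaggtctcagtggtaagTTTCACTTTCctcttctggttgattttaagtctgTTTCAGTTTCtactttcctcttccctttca
*Rsad2*, chr12:26456543-26456592, minus strand: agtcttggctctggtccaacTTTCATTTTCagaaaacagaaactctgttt
*Isg15*, chr4:156200855-156200916, minus strand: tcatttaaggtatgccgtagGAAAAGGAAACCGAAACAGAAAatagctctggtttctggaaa
The match of *Stat2* began 222 bases before the start, those of *Ifit1* 104 and 85 bases before it, and those of *Ifit3* 156 and 122 bases before it. That of *Rsad2* began 120 bases before the start. *Isg15* held 3 overlapping matches, which began 78, 72 and 66 bases before its start. A match describes the letters of the reference genome and was not measured as a bound site in these hearts.

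The 20 libraries held between 6682177 and 8960688 read pairs assigned to genes, with a median of 7902932 in control and 6806177 in IDA mice. Heart muscle genes were abundant in each mouse, for example *Myh6*, the alpha myosin heavy chain, which ranged from 1185 to 1607 CPM. The fold changes of all genes fell with exonic length, from a median log2 fold change of 0.34 in the shortest of 10 equal length classes to -0.53 in the longest. Values with that trend removed from each mouse, here called the gene length correction, stand beside the results. Whether the trend was technical or biological was not tested.

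The 9 genes did not change in one direction in IDA hearts. *Isg15* and *Irf7* rose, *Ifit2* and *Stat2* fell, and *Irf9*, *Ifit1*, *Ifit3*, *Rsad2* and *Usp18* did not pass the threshold, an adjusted p below 0.05 in the quasi-likelihood test of edgeR with Benjamini-Hochberg adjustment over the 13590 genes. The 4 genes that changed were 4 of 9, where 67.5% of all tested genes changed. The 2 that rose compare with 35.0% of all tested genes and the 2 that fell with 32.5%. The same 2 genes rose and the same 2 fell under a p below 0.01 in both edgeR and DESeq2, the rule of the study, taken here as unadjusted, by which 59.8% of all genes were called. The median log2 fold change of the members was -0.04, and that of all tested genes was 0.02. After the gene length correction 1 member rose, *Isg15*, and 1 fell, *Ifit2*, against 31.5% and 23.5% of all genes. In whole tissue, fewer cells that express a gene and less RNA per cell cannot be told apart.

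**Figure D1:**
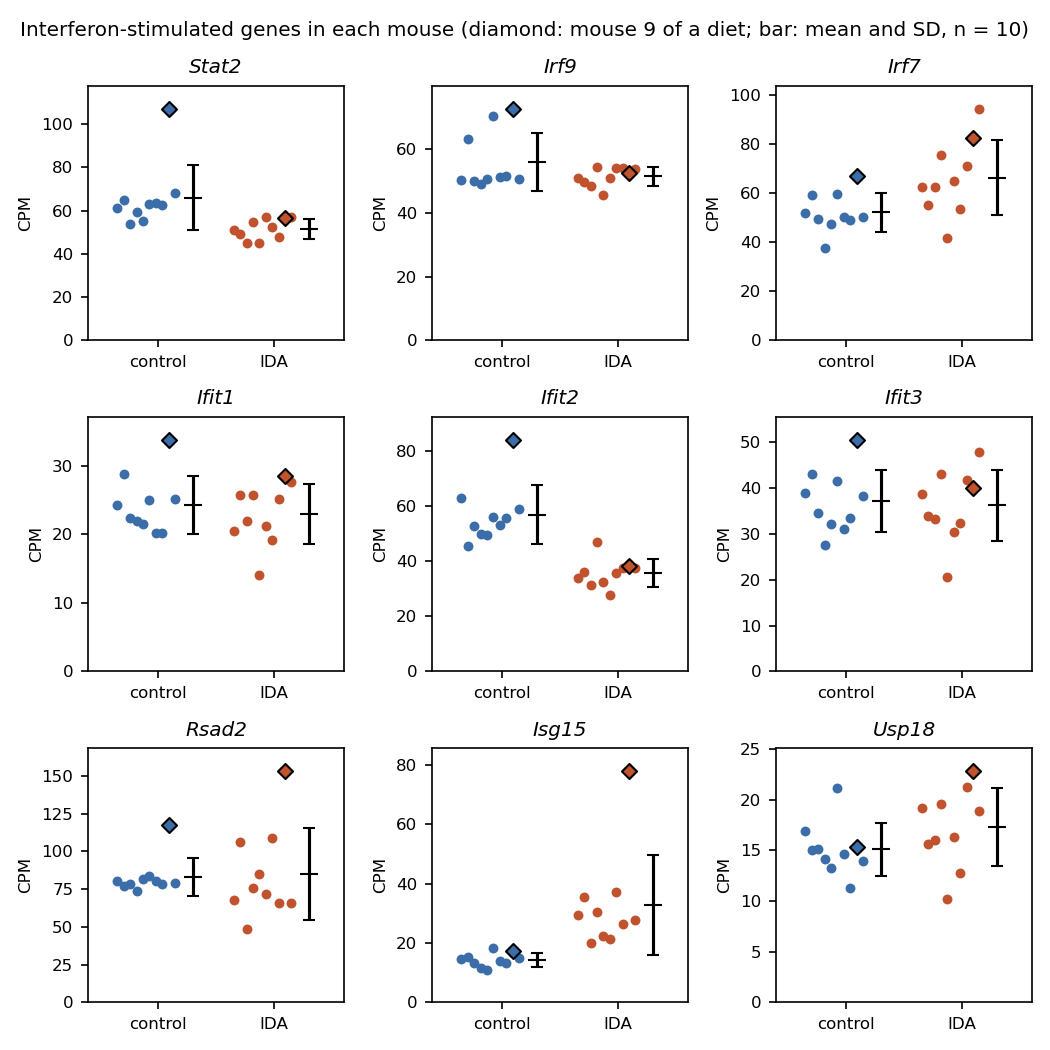
CPM (vertical axis, from 0) of each of the 9 genes in each mouse, with control mice in blue, IDA mice in red, mouse 9 of each diet as a diamond, and the mean and SD of 10 mice as a black bar. The diets separate without overlap in *Isg15*, from at most 18.5 CPM in control to at least 19.9 CPM in IDA, and control mouse 9 is the highest control in 7 of the 9 panels.

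Of the transcription factors, *Stat2* fell. It lies at chr10:128270576-128292849 on the plus strand of mm10, and its merged exons span 4394 bp. In control hearts it ranged from 53.9 to 107 CPM with a median of 62.8, and in IDA hearts from 45.0 to 57.2 CPM with a median of 51.6. Every IDA mouse lay below the control mean, and 6 of 10 lay below the lowest control. The log2 fold change was -0.35 (SE 0.09, adjusted p = 0.00216, edgeR, n = 10 per diet). Its size shrank to -0.12 with the gene length correction (adjusted p = 0.312), so the call of *Stat2* ended there.

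*Irf9*, the DNA-binding partner of STAT2, lies at chr14:55603985-55610030 on the plus strand with 2688 exonic bp. Its level was between 49.1 and 72.6 CPM in control mice, with a median of 51.0, and between 45.6 and 54.4 CPM in IDA mice, with a median of 51.7. Most mice of both diets lay close together near 51 CPM, while control mice 2, 6 and 9 stood higher, at 63.1, 70.5 and 72.6 CPM. The log2 fold change of -0.12 (SE 0.07) did not pass the threshold (adjusted p = 0.147, edgeR).

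*Irf7*, a factor that is itself interferon-induced and drives the transcription of interferon genes, lies at chr7:141263183-141266424 on the minus strand with 1859 exonic bp. It ranged from 37.8 to 66.9 CPM in control mice (median 50.3) and from 41.7 to 94.2 CPM in IDA mice (median 63.7). The groups overlapped, but 9 of 10 IDA mice lay above the control mean and 4 above the highest control. *Irf7* rose by a log2 fold change of 0.34 (SE 0.12, adjusted p = 0.0111, edgeR). This call was lost with the gene length correction, where the log2 fold change was 0.20 (adjusted p = 0.117), and with gene length and GC content corrected together it was 0.05 (adjusted p = 0.724). Without control mouse 4 and IDA mouse 10 it was 0.23 (adjusted p = 0.0557).

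The IFIT proteins bind foreign RNA. All 3 members of the family had a negative log2 fold change, and only *Ifit2* passed the threshold. *Ifit2*, at chr19:34550694-34576534 on the plus strand with 3949 exonic bp, ranged from 45.7 to 84.0 CPM in control hearts (median 54.5) and from 27.6 to 47.1 CPM in IDA hearts (median 35.9). Of the 10 IDA mice, 9 lay below the lowest control, and the exception was IDA mouse 4. *Ifit2* fell by 37.2% in its mean, a log2 fold change of -0.67 (SE 0.10, adjusted p = 2.96e-06, edgeR). It kept the call with the gene length correction, at -0.49 (adjusted p = 0.000161), with length and GC content corrected together, at -0.30 (adjusted p = 0.0143), and in the 120 fits that left out 1 or 2 mice, where it lay between -0.76 and -0.56. Among all tested genes, 8.90% had a lower log2 fold change than *Ifit2*.

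*Ifit1* lies at chr19:34640889-34650009 on the plus strand with 2638 exonic bp. It was measured at 20.2 to 33.8 CPM in control mice (median 23.3) and at 14.1 to 28.6 CPM in IDA mice (median 23.6). The diets lay on top of each other, with a log2 fold change of -0.08 (SE 0.11, adjusted p = 0.526, edgeR). *Ifit3*, at chr19:34583529-34588982 on the plus strand with 1998 exonic bp, ranged from 27.5 to 50.5 CPM in control (median 36.4) and from 20.5 to 47.9 CPM in IDA mice (median 36.4). Its log2 fold change was -0.04 (SE 0.12, adjusted p = 0.804, edgeR), with 5 of 10 IDA mice above the control mean. Counts of *Ifit3* are uncertain, since its transcript was 97.8% identical over 1700 bp to that of *Ifit3b*, which the count table lists as I830012O16Rik. That neighbour had a log2 fold change of -0.27 (SE 0.14, adjusted p = 0.0996, edgeR). With the gene length correction *Ifit3b* passed as lower at -0.38 (adjusted p = 0.0207, edgeR), and *Ifit3* did not pass at -0.15 (adjusted p = 0.267).

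*Rsad2* encodes viperin, a radical SAM enzyme with an iron-sulfur cluster that makes an antiviral nucleotide. It lies at chr12:26442743-26456452 on the minus strand with 3785 exonic bp. Control mice ranged from 74.0 to 118 CPM with a median of 79.7, and IDA mice from 48.7 to 153 CPM with a median of 73.7. The means of both diets were close, 83.0 ± 12.4 CPM in control and 84.9 ± 30.2 CPM in IDA mice (SD, n = 10 each), and the IDA mice spread on both sides of the controls. In IDA, 5 mice lay below the lowest control while mouse 9 lay above the highest control. The log2 fold change was 0.03 (SE 0.15, adjusted p = 0.871, edgeR), and its direction turned under 8 of 16 alternative settings.

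*Isg15*, the ubiquitin-like protein that is attached to other proteins during the interferon response, changed most of the 9 genes by log2 fold change. It lies at chr4:156199424-156200818 on the minus strand, and with 756 exonic bp it was the shortest member. Control mice ranged from 10.9 to 18.5 CPM (median 14.4) and IDA mice from 19.9 to 78.0 CPM (median 28.7), so the diets did not overlap. This separation in the higher direction was seen in 1 of 9 members and in 4.97% of all tested genes. In the lower direction it was seen in 0 of 9 members and in 6.28% of all genes. *Isg15* rose 2.28-fold in its mean, a log2 fold change of 1.19 (SE 0.20, adjusted p = 1.56e-05, edgeR), and 99.5% of all tested genes had a lower log2 fold change. The gene length correction left 0.85 (SE 0.20, adjusted p = 0.000898). IDA mouse 9 stood apart at 78.0 CPM, with the next mouse at 37.4 CPM, and without both mice numbered 9 the log2 fold change was 0.98 (adjusted p = 3.63e-06).

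*Usp18*, the protease that removes ISG15 from proteins and also restrains the interferon receptor, lies at chr6:121245906-121270917 on the plus strand with 1771 exonic bp. It ranged from 11.3 to 21.2 CPM in control mice (median 14.9) and from 10.2 to 22.8 CPM in IDA mice (median 17.6), with 8 of 10 IDA mice above the control mean. The log2 fold change of 0.20 (SE 0.12) did not pass the threshold (adjusted p = 0.166, edgeR), although it did in 7 of 120 fits that left out mice. An antisense gene, Gm44148, overlaps *Usp18* in GENCODE, and the counting did not use strand, so its reads cannot be told apart from those of *Usp18*.

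The enzymes that attach ISG15 moved unevenly. *Ube2l6*, its conjugating enzyme, rose from 41.7 ± 6.19 to 89.3 ± 33.1 CPM (SD, n = 10 each), with 10 of 10 IDA mice above the control mean and a log2 fold change of 1.10 (SE 0.15, adjusted p = 1.75e-06, edgeR). *Herc6*, the mouse ligase, fell from 18.1 ± 3.34 to 12.1 ± 2.20 CPM (log2 fold change -0.58, SE 0.11, adjusted p = 0.000106, edgeR). *Uba7*, the activating enzyme, had a log2 fold change of 0.15 (SE 0.08, adjusted p = 0.117, edgeR). With the gene length correction *Ube2l6* stayed higher at 0.87 (adjusted p = 5.82e-05), *Uba7* passed at 0.23 (adjusted p = 0.0303) and *Herc6* did not at -0.25 (adjusted p = 0.0525). *Ube2l6* was highest in IDA mouse 9, at 174 CPM, followed by IDA mice 7 and 2 at 113 and 93.9 CPM, which were also the highest in *Isg15* and among the 4 IDA mice highest in the erythroid markers given below. The part of blood cells in the level of *Ube2l6* was not tested.

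**Figure D2:**
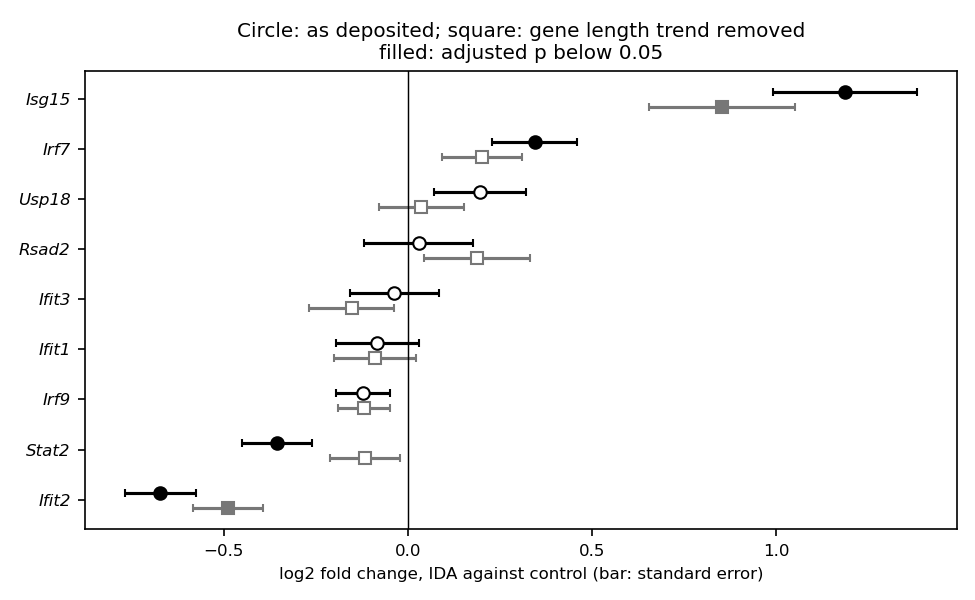
Log2 fold change of IDA against control (horizontal axis) with its standard error for each of the 9 genes, as circles for the counts as deposited and squares after the gene length trend of each mouse was removed; filled symbols have an adjusted p below 0.05. *Isg15* at 1.19 and *Ifit2* at -0.67 stay filled in both fits, and *Irf7* and *Stat2* are filled in the first only.

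Exonic length set the members against different backgrounds. *Isg15* was in length class 1, the shortest, where 79.2% of genes were higher in IDA and the median log2 fold change was 0.34. *Stat2* was in class 8, with 52.0% lower and a median of -0.20, and *Ifit2* and *Rsad2* in class 7, with 43.0% lower and a median of -0.12. *Irf7*, *Ifit3* and *Usp18* shared class 3, where the median was 0.20, and *Ifit1* and *Irf9* class 5, where it was 0.06. Within its own class, *Isg15* had a higher log2 fold change than 98.7% of genes, and *Ifit2* a higher one than 8.69%. *Stat2* stood above 33.1% of its class, *Irf7* above 74.7% and *Usp18* above 49.9%.

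**Figure D3:**
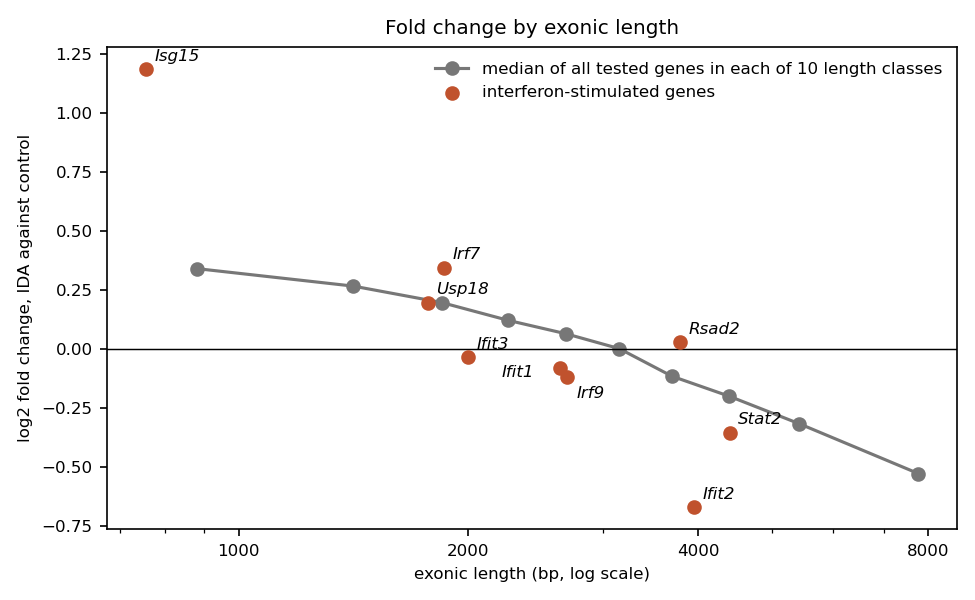
Log2 fold change (vertical axis) against exonic length in bp (horizontal axis, log scale), with the median of all tested genes in each of 10 length classes in grey and the 9 members in red. The grey line falls from 0.34 to -0.53, *Isg15* lies above it, *Ifit2* below it, and *Usp18* on it.

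Levels between the members were compared as CPM per kb of exonic length, and all differences named here are differences of these levels. In control hearts *Irf7* was the most abundant, at 28.1 ± 4.31 CPM per kb (SD, n = 10). It was followed by *Rsad2* at 21.9 ± 3.29, *Irf9* at 20.8 ± 3.41, *Isg15* at 19.0 ± 3.07 and *Ifit3* at 18.6 ± 3.38 CPM per kb. Below them came *Stat2* at 15.0 ± 3.42, *Ifit2* at 14.4 ± 2.71, *Ifit1* at 9.22 ± 1.61 and *Usp18* at 8.52 ± 1.47 CPM per kb. Of neighbours in this order, *Irf7* and *Rsad2*, *Ifit3* and *Stat2*, and *Ifit2* and *Ifit1* kept their order in 10 of 10 control mice. The other neighbours differed by less than 1 SD of either gene.

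In IDA hearts *Isg15* came first, at 43.5 ± 22.3 CPM per kb, ahead of *Irf7* at 35.7 ± 8.15. That lead held in 5 of 10 mice only and lay within the spread. *Rsad2* at 22.4 ± 7.99, *Irf9* at 19.2 ± 1.08, *Ifit3* at 18.1 ± 3.89 and *Stat2* at 11.7 ± 1.08 CPM per kb followed. *Usp18* at 9.76 ± 2.17, *Ifit2* at 9.04 ± 1.32 and *Ifit1* at 8.71 ± 1.68 CPM per kb closed the order, each within 1 SD of the next.

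The members also varied between mice of the same diet. Control mouse 9 lay above the control mean of log2 CPM in 9 of 9 members, by 0.43 on average, and IDA mouse 9 lay above the IDA mean in 9 of 9, also by 0.43. IDA mouse 5 stood lowest, 1 of its 9 members above the mean and an average deviation of -0.40. Control mice 4, 5, 7 and 8 and IDA mouse 3 had 0 members above their diet's mean. Control mouse 9 held 107 CPM of *Stat2*, where the next control held 68.2 CPM, and 118 CPM of *Rsad2*, where the next held 83.6 CPM. Without both mice numbered 9, *Isg15*, *Irf7*, *Ifit2* and *Stat2* kept their calls, at log2 fold changes of 0.98, 0.35, -0.60 and -0.27.

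*Irf7* was compared with each of the 8 other members within each diet, since its product acts on the promoters of such genes. Of these 16 relations over 10 mice each, 8 passed an adjusted permutation p of 0.05 (100000 resamples, Pearson's r, Benjamini-Hochberg over 16), 4 in each diet. *Ifit3* followed *Irf7* in control (r = 0.94, permutation p = 9e-05, adjusted p = 0.00144, Spearman's rho = 0.87, permutation p = 0.00242) and in IDA mice (r = 0.90, permutation p = 0.00054, adjusted p = 0.00288, rho = 0.83, permutation p = 0.00454). When the pair of mice with the most extreme *Irf7* was dropped from each diet, the r of *Ifit3* was 0.85 in control and 0.71 in IDA mice. *Ifit1* had r = 0.76 in control (permutation p = 0.0112, adjusted p = 0.0256, rho = 0.68, permutation p = 0.0347) and 0.87 in IDA mice (permutation p = 0.00146, adjusted p = 0.00467, rho = 0.83, permutation p = 0.00468). With that pair dropped *Ifit1* gave 0.76 and 0.70.

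*Isg15* followed *Irf7* in control mice, with r = 0.83 (permutation p = 0.0036, adjusted p = 0.0096, rho = 0.94, permutation p = 0.00021) and 0.82 with the extreme pair dropped. In IDA mice the r of *Isg15* was 0.32 (permutation p = 0.36, adjusted p = 0.384, rho = 0.15, permutation p = 0.683) and 0.37 with the pair dropped. The difference between the diets was not tested. *Irf9* gave r = 0.84 in control (permutation p = 0.00031, adjusted p = 0.00248, rho = 0.72, permutation p = 0.0239), and 0.71 in IDA mice (permutation p = 0.0222, adjusted p = 0.0444, rho = 0.52, permutation p = 0.134). With the pair dropped *Irf9* gave 0.92 in control, but 0.34 in IDA mice, so the relation in IDA rested on those mice. *Usp18* passed in IDA mice (r = 0.87, permutation p = 0.00114, adjusted p = 0.00456, rho = 0.84, permutation p = 0.00367, and 0.90 with the pair dropped).

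The relations that did not pass by r spanned an r of 0.44 to 0.69 in control mice, for *Stat2*, *Ifit2*, *Rsad2* and *Usp18*. Of these, *Usp18* did pass by rho, at 0.76 (permutation p = 0.0152, adjusted p = 0.0405), with r = 0.69 when the pair was dropped. By rho, *Irf9* and *Ifit1* in control mice did not pass (adjusted permutation p = 0.0547 and 0.062), nor did *Irf9* in IDA mice (adjusted permutation p = 0.155). In IDA mice they spanned -0.07 for *Rsad2* to 0.67 for *Stat2*. With the gene length trend removed, 11 of 16 relations passed. The library numbers in the column names fell into 2 runs, and the lower run held 7 IDA mice. In those 7 mice the r of *Irf7* was 0.97 with *Ifit1* (exact permutation p = 0.000595), 0.93 with *Ifit3* (exact permutation p = 0.00278), 0.90 with *Usp18* (exact permutation p = 0.00635), 0.71 with *Irf9* (exact permutation p = 0.0712) and 0.36 with *Isg15* (exact permutation p = 0.411). The other parts of the runs held 3 or 5 mice of a diet, too few for a correlation.

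The tested genes most like the members across the 20 mice were found by the Pearson correlation of their log2 CPM, with the mean of each diet removed, to the average of the members. This is a description over 20 mice that share tissue and depth. The first was I830012O16Rik, named *Ifit3b* above, at r = 0.84, followed by *Rtp4* at 0.83, *Oasl2* at 0.80, *Mndal* at 0.77 and *Gbp3* at 0.75. *Tap1* and *Uba7* at 0.73, and *Clec2d* and *Sp100* at 0.72, were also among the first 10. Without both mice numbered 9, the r of these 10 genes lay between 0.48 for *Sp100* and 0.90 for *Rtp4*. *Tap1*, a peptide transporter of antigen presentation, had a log2 fold change of -0.003 between diets (SE 0.15, adjusted p = 0.989, edgeR), and *Clec2d*, a lectin-like ligand of NK cells, rose by 0.48 (SE 0.07, adjusted p = 8.87e-06, edgeR). Each member was also compared with the mean of the other 8 in the same way, which gave an r from 0.41 for *Rsad2* to 0.82 for *Ifit1*.

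Markers of other cell types were counted beside the members, where 35.0% of all tested genes were higher in IDA and 32.5% lower. With the gene length correction these shares were 31.5% and 23.5%. Of 11 listed erythroid markers 7 were in the count table and 3 were tested, among them *Alas2* and *Slc4a1*, and 3 of 3 were higher in IDA. The summed level of these 3 was 51.2 to 125 CPM in control and 134 to 561 CPM in IDA mice, and the globin genes *Hba-a1*, *Hba-a2* and *Hbb-b2* were at 0 in each mouse. The exons of each of these globin genes overlap those of its neighbouring copy in the count table, so the level of globin RNA cannot be read from these zeros. Of 5 platelet markers 5 were higher, with summed levels of 34.5 to 104 CPM in control and 80.4 to 353 CPM in IDA mice. Of 9 general leukocyte markers 5 were higher and 1 lower, with sums of 272 to 349 CPM in control and 254.4 to 464 CPM in IDA mice. Of 9 macrophage markers 4 were higher and 3 lower, with sums of 680 to 778 CPM and 658 to 820 CPM. With the gene length correction 4 leukocyte markers were higher and 0 lower, and 3 macrophage markers were higher and 2 lower. Of the 5 tested T, B and NK cell markers 4 were higher, at sums of 7.98 to 12.7 CPM and 9.49 to 35.2 CPM. Of the 4 tested monocyte and neutrophil markers 2 were higher and 1 lower, at sums of 11.3 to 27.1 CPM and 11.5 to 88.7 CPM. Corrected for gene length, 3 of these 4 were higher and 0 lower, as were 3 of the 5 T, B and NK cell markers. Of 5 plasmacytoid dendritic cell markers 3 were tested, with *Bst2* and *Ly6d* higher at log2 fold changes of 0.32 and 1.21 and *Tcf4* lower at -0.51, and 0 of the 3 passed with the gene length correction. Their sums were 256.5 to 317 CPM in control and 205 to 256.2 CPM in IDA mice. Most of each sum was *Tcf4*, with means of 248 CPM in control and 174 CPM in IDA mice. With the gene length correction *Tcf4* was at -0.018, so the sums largely follow that 1 gene. *Siglech*, a defining marker of plasmacytoid dendritic cells, the main interferon producers of blood, stayed at or below 1.59 CPM in each of the 20 mice.

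The mean log2 CPM of the 3 erythroid markers lay between 1.76 and 3.18 in control and between 3.76 and 7.15 in IDA mice. IDA mouse 9, with 78.0 CPM of *Isg15* and 153 CPM of *Rsad2*, had the highest marker mean. The next by this mean were IDA mice 5, 7 and 2, at 6.53, 6.40 and 6.37, with 22.4, 37.4 and 35.6 CPM of *Isg15* and 85.0, 109 and 106 CPM of *Rsad2*. IDA mice 3, 6, 10 and 8 had the lowest marker means, from 3.76 to 4.27, and 19.9, 21.3, 27.7 and 26.3 CPM of *Isg15*, each above the highest control at 18.5 CPM. *Rsad2* was 48.7, 71.6, 66.0 and 66.1 CPM in those 4 mice, each below the lowest control at 74.0 CPM. *Irf7* did not keep this order, since its highest value, 94.2 CPM, was in IDA mouse 10 and its lowest, 41.7 CPM, in IDA mouse 5.

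With the erythroid marker mean as a covariate, a setting chosen after seeing the data, *Isg15* had a log2 fold change of 0.38 (adjusted p = 0.253, edgeR) and lost its call. *Rsad2* then fell by 0.63 on the log2 scale (adjusted p = 0.018), *Irf7* was higher by 0.62 (adjusted p = 0.00799) and *Ifit2* lower at -0.65 (adjusted p = 0.00459). *Stat2* lost its call at -0.18 (adjusted p = 0.371). The marker mean did not overlap between the diets, so in this fit the marker and the diet cannot be told apart. The part of blood cells, platelets and leukocytes in the levels of *Isg15* and *Rsad2* was not tested.

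**Figure D4:**
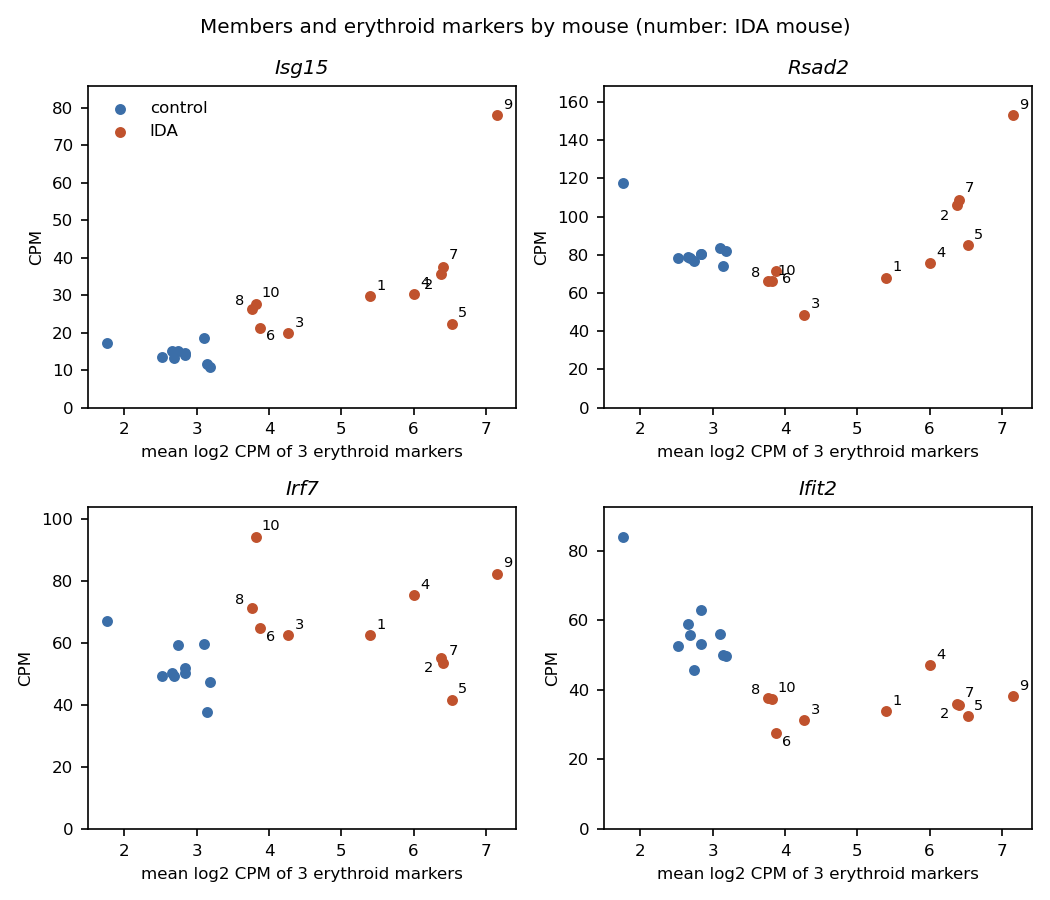
CPM of *Isg15*, *Rsad2*, *Irf7* and *Ifit2* (vertical axes, from 0) against the mean log2 CPM of 3 erythroid markers (horizontal axis) in each of 10 control mice (blue) and 10 IDA mice (red, with mouse numbers). IDA mouse 9 is highest in marker mean, *Isg15* and *Rsad2*. The 4 IDA mice with a marker mean of at most 4.27 lie above the controls in *Isg15*, and 9 of 10 IDA mice lie below the lowest control in *Ifit2*. The marker means of the diets do not overlap.

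The runs of library numbers gave a further split, with 5 control and 7 IDA mice in the lower run and 5 control and 3 IDA mice in the higher run. *Isg15* rose in both, first the lower and then the higher run, by 1.15 (adjusted p = 0.00336) and 1.09 (adjusted p = 0.00278, edgeR), and *Ifit2* fell in both, at -0.75 (adjusted p = 0.000259) and -0.64 (adjusted p = 0.0029). *Stat2* fell in both, at -0.46 (adjusted p = 0.0056) and -0.30 (adjusted p = 0.0179). *Irf7* was at 0.32 (adjusted p = 0.102) and 0.28 (adjusted p = 0.0827) and passed in neither run alone.

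Few read pairs were counted for the interferons themselves. Of 19 interferon ligand genes counted, 15 had 0 read pairs in each of the 20 mice, and the other 4 together had 14 of 149053437 read pairs. A count of 0 allows up to 3 read pairs in all mice together, or 0.0201 CPM, for counting error only. Several of these genes are close copies of each other, and read pairs that match several genes may go uncounted, so the zeros are not read as absence of expression. The receptor genes were measurable. *Ifnar2*, a subunit of the type I receptor, rose by 0.25 (SE 0.04, adjusted p = 5.08e-06, edgeR), from 73.0 ± 3.97 to 86.7 ± 3.61 CPM (SD, n = 10 each), with 10 of 10 IDA mice above the control mean. Its partner *Ifnar1* had a log2 fold change of -0.03 (SE 0.03, adjusted p = 0.385). The receptor genes for interferon gamma, *Ifngr1* and *Ifngr2*, rose by 0.19 and 0.16 (adjusted p = 0.000297 and 0.00266, edgeR). Thus 3 of 6 receptor genes were higher and 0 lower, where 35.0% and 32.5% of all tested genes were. *Ifnlr1* and *Il10rb*, which form the interferon lambda receptor, were at -0.16 and -0.04 (adjusted p = 0.188 and 0.476). With the gene length correction *Ifnar2* stayed higher at 0.33 (adjusted p = 1.65e-06), *Ifnar1* passed at 0.42 (adjusted p = 1.51e-06), and *Il10rb* was lower at -0.18 (adjusted p = 0.00183). *Ifngr1* and *Ifngr2* then lost their calls, at 0.09 and 0.06 (adjusted p = 0.0593 and 0.243).

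Of 8 tested JAK-STAT genes other than *Stat2*, 5 were lower and 0 higher, where 32.5% and 35.0% of all tested genes were. Among these were *Jak1*, *Jak2*, *Stat3* and *Stat5b*, at log2 fold changes of -0.12, -0.34, -0.15 and -0.25. The genes are long, with a median of 4951.5 exonic bp. With the gene length correction 3 were higher, *Jak1*, *Tyk2* and *Stat6*, and 0 lower, against 31.5% and 23.5% of all tested genes. Among the other interferon regulatory factors, *Irf3*, the factor activated first on infection, rose by 0.36 (adjusted p = 3.06e-05, edgeR) and *Irf8* by 0.29 (adjusted p = 0.017). *Irf2*, a repressor of interferon-induced genes, was lower at -0.31 (adjusted p = 1.95e-05) and *Irf4* at -0.58 (adjusted p = 0.00269). With the gene length correction *Irf4* lost its call at -0.31 (adjusted p = 0.0866), while *Irf3*, *Irf8* and *Irf2* kept theirs at 0.28, 0.31 and -0.34. *Irf1* and *Irf5* were at -0.02 and 0.19 and did not pass.

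Of 19 genes of nucleic acid sensing, 10 were lower and 2 higher, with a median log2 fold change of -0.20, where 32.5% of all tested genes were lower and 35.0% higher. *Tlr3*, the endosomal receptor for double-stranded RNA, fell from 36.9 ± 3.10 to 24.6 ± 3.55 CPM (log2 fold change -0.58, adjusted p = 7.04e-07, edgeR). *Ddx58*, which encodes the RNA sensor RIG-I, was lower at -0.53 (adjusted p = 1.36e-06) and *Trim25*, its ubiquitin ligase, at -0.32 (adjusted p = 9.33e-07). The adaptors *Ticam1* and *Myd88* rose, both by 0.23 (adjusted p = 0.000807 and 0.000925). Corrected for length, 7 were lower and 2 higher, against 23.5% and 31.5% of all tested genes. *Tlr3* was then at -0.36 (adjusted p = 2.41e-05, edgeR), *Ddx58* at -0.24 (adjusted p = 0.000502) and *Trim25* at 0.03 (adjusted p = 0.545). *Ticam1* kept its call at 0.25 (adjusted p = 0.00078), *Myd88* lost it at 0.09 (adjusted p = 0.117), and *Mavs*, another adaptor, passed at 0.12 (adjusted p = 0.0123).

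The 46 tested genes of a wider list of interferon-induced genes lay on both sides of 0, with 14 higher, 15 lower and a median of -0.01. These counts are near the shares over all tested genes, 35.0% higher and 32.5% lower. *Isg20*, an RNA exonuclease, had the largest rise of the list, from 12.6 ± 1.64 to 42.2 ± 28.8 CPM (log2 fold change 1.74, SE 0.26, adjusted p = 4.82e-06, edgeR). Its highest value, 115 CPM, was again in IDA mouse 9. *Slfn2* and *Ifitm2* rose by 0.59 and 0.30 (adjusted p = 4.68e-06 and 1.81e-06), while *Dtx3l*, *Parp14* and *Cmpk2* were lower at -0.59, -0.68 and -0.66 (adjusted p = 3.2e-07, 6.93e-07 and 2.09e-06). *Cmpk2*, which encodes a nucleotide kinase and lies beside *Rsad2* in the genome, fell from 42.2 ± 5.20 to 26.7 ± 4.68 CPM and stayed lower with the gene length correction at -0.58 (adjusted p = 1.8e-05). *Ifitm2*, with 627 exonic bp, turned to -0.055 with that correction (adjusted p = 0.158), while *Slfn2* stayed higher at 0.41 (adjusted p = 0.000101). *Dtx3l* and *Parp14*, with 5181 and 7251 exonic bp, shrank to -0.28 and -0.21 and kept their calls (adjusted p = 7.16e-05 and 0.0151, edgeR). In all, 9 of the 46 were then higher and 12 lower, against 31.5% and 23.5% of all tested genes.

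The GTPases and chemokines induced mainly by interferon gamma leaned one way. Of 16 tested, 12 were lower, where 32.5% of all tested genes were lower, and 0 were higher, with a median log2 fold change of -0.55, against -0.04 for the 9 members and 0.02 for all tested genes. *Gbp9* was lower at -1.25 (SE 0.14, adjusted p = 2.63e-07, edgeR), *Gbp7* at -1.08 (SE 0.16, adjusted p = 2.92e-06) and *Iigp1* at -0.66 (SE 0.14, adjusted p = 0.00018). Corrected for length, 11 of 16 were lower, against 23.5% of all tested genes, and the median was -0.50. The summed level of the list was 606 to 758 CPM in 9 control mice, and 1463 CPM in control mouse 9. It was 470 to 585 CPM in the 10 IDA mice, so these sums did not overlap between the diets. Among single genes, 6.28% of all tested genes were lower without overlap, a share not computed for sums. Without both mice numbered 9, 10 of 16 were lower and the median was -0.45.

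Of 10 negative regulators of the pathway, 4 were higher and 5 lower, where 35.0% of all tested genes were higher and 32.5% lower. *Pias4*, *Ptpn1* and *Socs3* rose by 0.31, 0.20 and 0.36 (adjusted p = 1.42e-05, 0.00011 and 0.0168, edgeR). *Pias1*, *Pias2* and *Ptpn11* were lower at -0.57, -0.35 and -0.16 (adjusted p = 2.35e-06, 3.14e-06 and 0.00791). After the length correction 5 were higher and 1 lower, against 31.5% and 23.5% of all tested genes. *Ptpn11* then turned to 0.19 (adjusted p = 0.000338) and *Ptpn2* from -0.13 to 0.40 (adjusted p = 1.85e-05), both called in the opposite direction, and *Pias2* lost its call at -0.02 (adjusted p = 0.675).

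**Figure D5:**
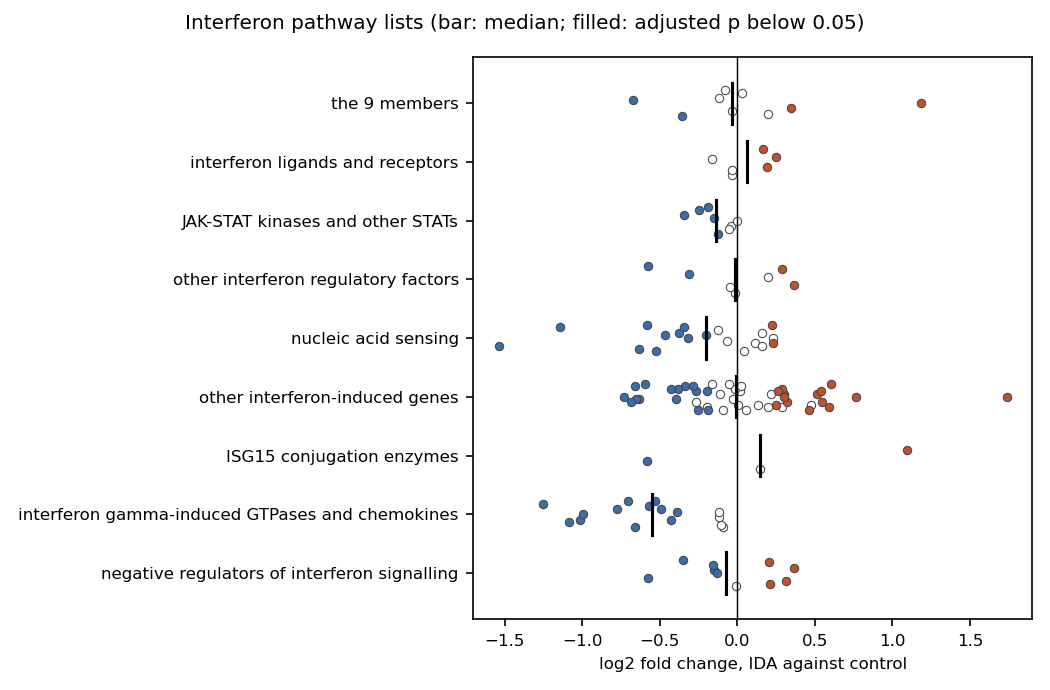
Log2 fold change of IDA against control (horizontal axis) for each tested gene of the 9 members and of 8 interferon pathway lists, with the median of each list as a black bar; genes with an adjusted p below 0.05 are filled, red where higher and blue where lower. The interferon gamma-induced list has its median at -0.55 and 0 filled genes on the right, while the members and the other interferon-induced genes lie on both sides of 0.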

How the data were processed

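Poly(A) RNA of 20 hearts was sequenced as read pairs. The authors used STAR for alignment (mm10) and samtools to drop duplicate pairs, and deposited, per the file header, read-pair counts per gene from featureCounts 1.4.5-p1, counted without strand and without normalization. Here, groups and replicate numbers came from the sample titles. The test used edgeR 4.0.16 in R 4.3.3 on genes that reached 1 CPM in 10 or more mice (TMM normalization, quasi-likelihood test, Benjamini-Hochberg adjustment over 13590 genes, threshold 0.05). CPM values are TMM-normalized, and log2 CPM used a prior count of 2. DESeq2 1.42.0 and limma 3.58.1 gave alternatives. The gene length correction entered as an offset a loess curve (span 0.5, degree 1) of each mouse's log2 CPM deviation on log2 exonic length, which removes any trend on length, technical or biological. The script was tested on simulated counts.

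The members and lists were chosen with earlier results of these data known. All 9 members were named, as were the genes of the receptor, JAK-STAT, interferon regulatory factor and ISG15 conjugation lists, up to 3 genes with the smallest p in each direction from the other lists, and the 10 genes most like the members, except for a few genes that are not reported here by name. *Mavs*, *Ptpn2*, the plasmacytoid dendritic cell markers and the globin genes were picked from their lists after their values were seen. Mice of one diet differed by more than sampling noise in each pair (chi-square per degree of freedom of at least 1.50). Transcripts were compared with blastn, and alternative settings are given with the limits.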

Additional observations from a re-analysis of the deposited data

Results flagged for a closer look

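Each member was examined in each diet for a mouse whose gap to the nearest other mouse as a share of the range of the 10 mice, exceeded Dixon's critical value. Chance would single out about 1 in 20 such groups if they were independent, and 4 of 18 were singled out. The groups of a diet share the same 10 mice and the members varied together, so these shares cannot be compared. Control mouse 9 stood apart in *Stat2* at 107 CPM (next 68.2 CPM), in *Ifit2* at 84.0 CPM (next 62.8 CPM) and in *Rsad2* at 118 CPM (next 83.6 CPM). IDA mouse 9 stood apart in *Isg15* at 78.0 CPM (next 37.4 CPM).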

How the results depend on the processing

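In 16 settings that changed the test, normalization, filter, covariates or libraries, and in 120 fits that left out 1 or 2 mice, *Ifit2* kept its direction and call in each, and *Stat2*, *Irf7* and *Isg15* kept their direction in each. *Irf9* and *Usp18* kept their direction in the same fits, and *Irf9* passed in 0 of them. *Stat2* lost its call under the gene length correction (-0.12), the gene length and GC correction (-0.18) and the erythroid marker covariate (-0.18). *Irf7* lost it under the gene length correction (0.20), the gene length and GC correction (0.05), a library size covariate (0.23), and in the lower (0.32) and higher (0.28) run of library numbers alone. *Isg15* lost it with the erythroid marker covariate (0.38). The causes were not tested, and each run of library numbers alone held fewer mice than the full comparison.

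Members higher dropped from 2 to 1 under the gene length correction, the gene length and GC correction, the library size covariate, the erythroid marker covariate and in each run of libraries alone. Members lower dropped from 2 to 1 under the gene length correction and the gene length and GC correction. All genes lower went from 4416 to 2683 under the gene length and GC correction, and all genes higher from 4761 to 2635 in the higher run of libraries. The number of *Irf7* relations that passed went from 8 to 11 with the length trend removed. The direction of *Rsad2*, 0.03, turned to -0.039 with limma-voom, -0.046 with the library size covariate, -0.021 with the replicate block, -0.63 with the erythroid marker covariate, -0.015 with the library run as a term, -0.096 in the higher run, -0.037 without both mice numbered 9 and -0.028 in the permutation test. *Ifit3* turned to 0.019 with total counts only, 0.24 with the erythroid marker covariate and 0.0065 without both mice numbered 9. *Ifit1* turned to 0.075 with the gene length and GC correction and 0.085 with the erythroid marker covariate. The erythroid covariate, the library runs and the loss of both mice numbered 9 were chosen after seeing the data.

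With mice left out, *Ifit1* ranged from -0.16 to 0.044, *Ifit3* from -0.13 to 0.093 and *Rsad2* from -0.13 to 0.17, none of them past the threshold. Members higher ranged from 1, without control mouse 4 or 8 together with IDA mouse 10, to 3, for example without IDA mouse 5, and members lower stayed at 2. *Usp18* passed in 7 of the 120 fits and *Irf7* in 118. The replicate block changed no call of a member, with 2 higher and 2 lower. Mice that share a number are not paired by the labels, and the correlation of their deviations ran from -0.28 to 0.26, above 0.1 in 3 of 10 pairs. The lowest count of a member in a mouse was 82 read pairs, of *Usp18*. Median depth differed between the diets, and *Irf7* lost its call with the library size covariate, as given above.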
